A study of Mus musculus with 2 samples.

Results

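Here 10 genes of tumour necrosis factor (TNF) and nuclear factor kappa B (NF-kB) signalling were followed through the cells of injured mouse quadriceps: *Tnf*, *Tnfsf9*, *Tnfrsf1a*, *Tnfrsf1b*, *Nfkb1*, *Rel*, *Nfkbia*, *Nfkbiz*, *Bcl3* and *Tnfaip3*. They were taken by symbol from the 32285 genes of the count tables, and all 10 were present. Mononuclear cells came from the quadriceps of 14-week-old male wild-type C57BL/6J mice, 1 or 3 days after an injection of 100 µL of 1.2% BaCl2, a salt that destroys muscle fibres and is followed by an inflammatory infiltrate and regeneration. Each day had 1 10x Genomics library, made from the cells of 5 mice that had been sorted by light scatter, pooled and frozen, and uninjured muscle was not analysed here. With 1 library per day there was no replicate, so no test was run, and a difference between the days cannot be told apart from a difference between the libraries. The libraries summed to 74852240 UMIs (unique molecular identifiers, 1 per captured RNA molecule) on day 1 and 102565783 on day 3, and the 6735 and 4627 cells kept had medians of 9389 and 14548 UMIs. The barcode lists held 737280 entries on day 1 and 6794880 on day 3, so the library chemistry may differ as well, and no barcode was found among the cells of both libraries.

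TNF is a cytokine made mainly by activated myeloid cells. Binding of TNF to its receptors frees NF-kB dimers from their inhibitors, and the dimers then switch on inflammatory genes together with the genes of their own inhibitors, a negative feedback. In injured muscle the first days bring neutrophils, then monocytes that become macrophages, and TNF is known there both for driving inflammation and for acting on muscle precursors and fibro/adipogenic progenitors (FAPs).

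The genes lie apart from each other on GRCm38, the build the labels call mm10. By the GENCODE annotation, *Tnf* is at chr17:35199381-35202007 on the minus strand, and *Tnfsf9* is on the same chromosome at chr17:57105325-57107757 on the plus strand. *Tnfrsf1a* is at chr6:125349362-125362484 (plus), and *Tnfrsf1b* is at chr4:145213463-145246870 (minus). *Nfkb1* is at chr3:135584655-135691547, *Rel* at chr11:23736847-23770970, *Nfkbia* at chr12:55489410-55492647, *Nfkbiz* at chr16:55811375-55838899, *Bcl3* at chr7:19808462-19822770 and *Tnfaip3* at chr10:19000910-19015657, all on the minus strand. All are protein-coding genes, and the 3-prime libraries count their transcripts at the end of the last exon or close to it.

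Because the inhibitors of NF-kB are themselves NF-kB targets, the promoters of the genes were searched for the NF-kB consensus on both strands. RefSeq promoter windows on GRCm38.p6 were given for 7 of the 10 genes, and the 250 bases before the RefSeq start were read. All starts in this paragraph are those of RefSeq, and some differ from those of GENCODE. The *Tnfaip3* window printed below lies almost wholly inside the GENCODE gene. The *Tnfrsf1a* window, chr6:125349473-125349722, lies wholly after the GENCODE start. *Nfkbiz*, *Nfkb1* and *Tnfsf9* had no window and were not searched. The consensus was found before the start of *Nfkbia*, *Tnfaip3* and *Rel*, that is in 3 of the 7 genes, while 7.25% of the 32851 windows of all genes held it. Their sequences are shown because 2 are feedback inhibitors and 1 is an NF-kB subunit, 5-prime to 3-prime on the minus strand, with the matches in capitals.
Nfkbia, chr12:55492648-55492897: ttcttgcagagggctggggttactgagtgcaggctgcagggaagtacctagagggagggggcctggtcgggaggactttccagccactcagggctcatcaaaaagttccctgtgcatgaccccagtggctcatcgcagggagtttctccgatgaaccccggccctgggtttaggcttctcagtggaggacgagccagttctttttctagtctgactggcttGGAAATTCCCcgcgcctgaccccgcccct
Tnfaip3, chr10:19015411-19015660: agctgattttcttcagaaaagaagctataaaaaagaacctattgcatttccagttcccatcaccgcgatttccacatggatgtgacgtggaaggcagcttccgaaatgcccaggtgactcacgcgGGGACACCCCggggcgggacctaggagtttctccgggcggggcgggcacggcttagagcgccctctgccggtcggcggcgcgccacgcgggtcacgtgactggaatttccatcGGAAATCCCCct
Rel, chr11:23770970-23771219: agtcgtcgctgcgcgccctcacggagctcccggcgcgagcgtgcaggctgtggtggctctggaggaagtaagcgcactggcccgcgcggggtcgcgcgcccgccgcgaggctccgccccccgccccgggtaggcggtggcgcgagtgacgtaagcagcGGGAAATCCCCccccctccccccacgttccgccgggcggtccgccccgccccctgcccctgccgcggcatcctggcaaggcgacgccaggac
The match of *Nfkbia*, on the opposite strand, began 29 bases before the start. *Tnfaip3* had a match on both strands 125 bases before the start of its upstream transcript and another 12 bases before it, and none before its second annotated start. In *Rel* matches on both strands overlapped, 92 and 91 bases before the start. No match was in the windows of *Tnf*, *Tnfrsf1a*, *Tnfrsf1b* and *Bcl3*, which says only that these letters are not there. A match is a description of the sequence, and binding was not measured.

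Cells were clustered without the 10 genes and without the naming markers, and each cluster took a name ending in -like from lists of marker genes. Monocyte/macrophage-like cells made up 3499 cells on day 1 and 2783 on day 3, and neutrophil-like cells 2079 and 261. Dendritic cell-like cells numbered 418 and 453, fibroblast/FAP-like cells 635 and 810, endothelial-like cells 99 and 120, and satellite cell/myoblast-like cells 5 and 200. Levels are given in CPM, the UMIs of a gene for every 1000000 UMIs when the cells of a group are added up, and ranges in parentheses are 95% intervals of counting (exact Poisson for CPM), which leave out the variation between mice and libraries.

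Several groups are less pure or less alike than their names. In the neutrophil-like cells of day 3, 27 cells with 3000 UMIs or more held 46.4% of the UMIs, and markers of neutrophils summed to 2355 CPM in them, against 52746 CPM in the other 234 cells and 94361 CPM in the neutrophil-like cells of day 1. Monocyte/macrophage markers summed to 7096 CPM in those 27 cells and to 1045 CPM in the other 234. Neutrophil-like levels of day 3 are for all 261 cells unless they are said to be for the 234 cells under 3000 UMIs, a limit chosen after the values were seen. The dendritic cell-like cluster had 5 of 12 dendritic cell markers raised and 10 of 17 monocyte/macrophage markers. In the endothelial-like cluster endothelial markers summed to 3331 CPM on day 1 and 1316 CPM on day 3. Markers of neutrophils summed to 2973 and 107 CPM there, erythroid markers to 2455 and 4.47 CPM and T/NK markers to 114 and 1204 CPM. Monocyte/macrophage markers summed to 1386 and 2738 CPM and fibroblast/FAP markers to 929 and 1499 CPM, both above the endothelial markers on day 3. The part of cells of other types in the levels of this cluster was not tested. The monocyte/macrophage-like cells, too, came mostly from different clusters on each day. On day 1 and day 3 the *Serpinb2*-led cluster had 1439 and 9 cells, the *Ppbp*-led cluster 1220 and 20 and the *Ifitm6*-led cluster 733 and 54, whereas the *Gpnmb*-led cluster had 19 and 1215, the *Plac8*-led cluster 66 and 764, the *Nusap1*-led cluster 1 and 378 and the *Ifit2*-led cluster 21 and 343. Fibroblast/FAP-like cells came from an *Il1rl1*-led cluster on day 1 (625 of 635 cells) and a *Sfrp2*-led cluster on day 3 (805 of 810). The days thus compare different clusters, each almost wholly of 1 library. The *Il1rl1*-led cluster had 4 of 8 fibroblast/FAP markers raised and the *Sfrp2*-led cluster 8 of 8. In fibroblast/FAP-like cells these markers summed to 6535 CPM on day 1 and 23112 CPM on day 3, and tenocyte markers to 916 and 274 CPM.

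**Figure D1:**
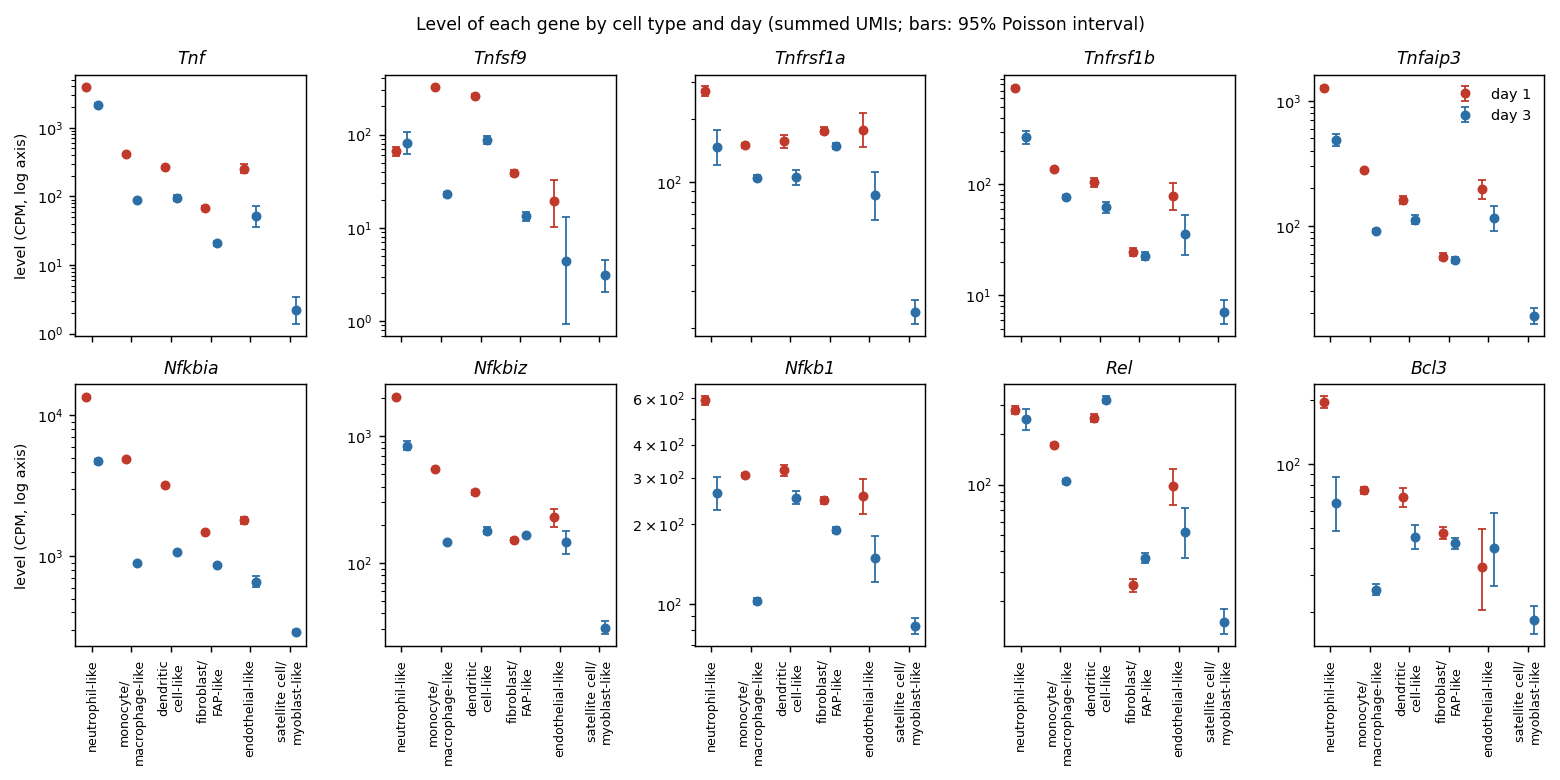
Level of each gene in CPM (vertical log axis) in each cell type with at least 50 cells, red for day 1 and blue for day 3, with 95% Poisson intervals of the summed counts as bars. Neutrophil-like cells of day 1 sit at the top in 8 of the 10 panels, and *Tnfsf9* and *Rel* have other orders.

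*Tnf*, the founding ligand of the family, was by far highest in neutrophil-like cells. Its level was 3953 CPM (3899 to 4008) there on day 1 and 2173 CPM (2067 to 2282) on day 3. Monocyte/macrophage-like cells had 415 CPM (408 to 421) on day 1 and 88.3 CPM (85.6 to 91.1) on day 3, a 4.69-fold lower level. Dendritic cell-like cells had 264 and 94.5 CPM, endothelial-like cells 255 and 52.2 CPM, and fibroblast/FAP-like cells 68.2 and 20.8 CPM. Among neighbours in this order, the intervals of dendritic cell-like and endothelial-like cells of day 1 overlapped, as did those of dendritic cell-like and monocyte/macrophage-like cells of day 3. So did those of fibroblast/FAP-like cells of day 1 and endothelial-like cells of day 3. Among the 11 groups with at least 50 cells, satellite cell/myoblast-like cells of day 3 had the lowest level, 2.22 CPM (1.36 to 3.43). Free RNA would give 178% of it, and 42.0% and 28.2% of the endothelial-like levels of day 1 and day 3. The free RNA profile was taken from barcodes with at most 100 UMIs. Its share in fibroblast/FAP-like, endothelial-like and satellite cell/myoblast-like cells was set by taking all their *S100a8*, *S100a9*, *Retnlg* and *Lyz2* UMIs as free RNA. Doublets with leukocytes would count in it too, so the percentages can be too high.

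The neutrophil-like level depended on which cells of day 3 were counted. In cells under 3000 UMIs *Tnf* was at 3890 CPM on day 1 and 3737 CPM on day 3, a log2 ratio of -0.06 (-0.14 to 0.02). The 27 deeper cells of day 3 had 369 CPM. Over all neutrophil-like cells the log2 ratio was -0.86, and without the cells with the highest doublet scores it was -0.60 (-0.67 to -0.52). *Tnf* in monocyte/macrophage-like cells had a log2 ratio of day 3 over day 1 of -2.23 (-2.28 to -2.18).

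Shares of cells with a *Tnf* UMI were compared at equal depth. After each cell was thinned to 1000 UMIs, which left out no cell, 77.7% of neutrophil-like cells on day 1 (75.8 to 79.5, Clopper-Pearson) and 73.6% on day 3 (67.8 to 78.8) had a *Tnf* UMI. Of the monocyte/macrophage-like cells, 24.98% had one on day 1 and 7.98% on day 3. At 3000 UMIs, with 3371 and 2743 of them deep enough, the shares of monocyte/macrophage-like cells were 48.0% and 20.01%, 28.0 percentage points apart. Satellite cell/myoblast-like cells of day 3 gave 0 of 200 cells, which allows a share of up to 1.5%. At full depth the shares were 86.2% and 85.1% in neutrophil-like cells (median 2155 and 1630 UMIs), 72.8% and 52.4% in monocyte/macrophage-like cells (median 11181 and 13889 UMIs), and 4.0% in satellite cell/myoblast-like cells (median 44240.5 UMIs), where the free RNA estimate exceeds the level.

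**Figure D2:**
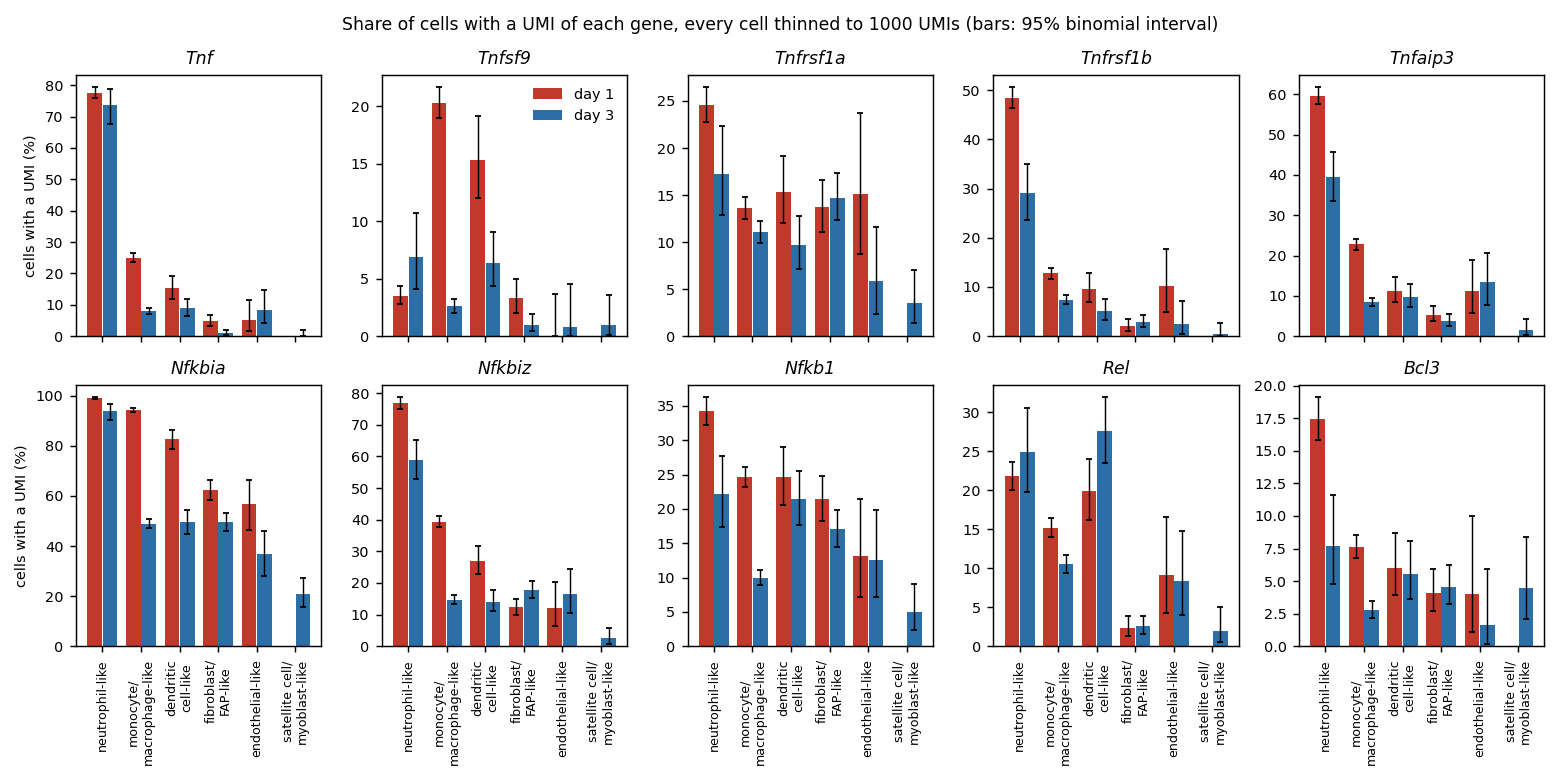
Share of cells with a UMI of each gene (vertical axis, percent) after every cell was thinned to 1000 UMIs, by cell type, red for day 1 and blue for day 3, with 95% binomial intervals. *Tnf* was found in 77.7% and 73.6% of neutrophil-like cells, while the share in monocyte/macrophage-like cells was 24.98% on day 1 and 7.98% on day 3, and no day order is read where the order of the shares goes against that of the CPM, as for *Rel* in neutrophil-like cells and for several genes in fibroblast/FAP-like and endothelial-like cells.

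*Tnf* transcripts were unevenly held. Neutrophil-like cells had 7.26% of all UMIs on day 1 but 50.7% of the *Tnf* UMIs, and monocyte/macrophage-like cells had 42.3%. On day 3 neutrophil-like cells had 0.868% of all UMIs and 24.2% of the *Tnf* UMIs, and monocyte/macrophage-like cells had 59.7%. Neutrophil-like cells were 30.9% of the cells on day 1 and 5.64% on day 3, shares that the scatter sort, the limit of 1000 UMIs and the mitochondrial limit can set. Within monocyte/macrophage-like cells the 10% of cells with most *Tnf* UMIs held 50.2% of them on day 1 and 51.0% on day 3, and 1 cell had 140 UMIs on day 1.

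**Figure D3:**
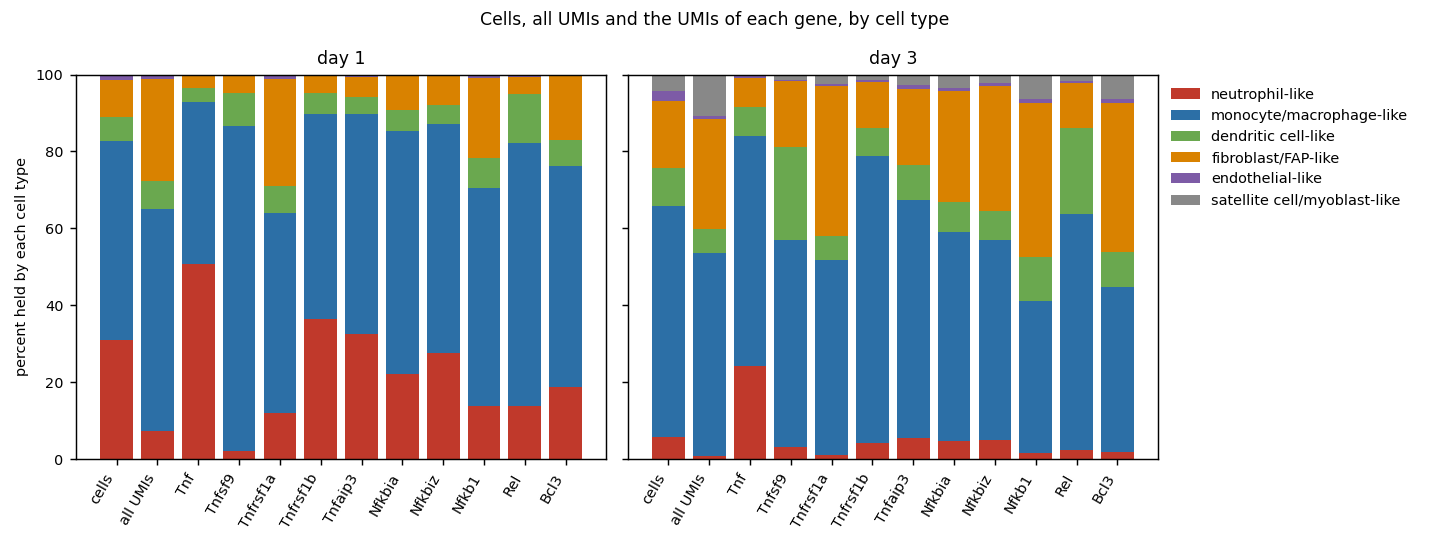
Percent of cells, of all UMIs and of the UMIs of each gene (bars, vertical axis) held by each cell type (colours), day 1 on the left and day 3 on the right. Red, the neutrophil-like cells, makes up 50.7% of the *Tnf* bar on day 1 and 24.2% on day 3 against 7.26% and 0.868% of all UMIs.

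*Tnfsf9*, the ligand of the costimulatory receptor CD137, had another distribution. It was highest in monocyte/macrophage-like cells of day 1 at 323 CPM (317 to 328), followed by dendritic cell-like cells at 260 CPM (247 to 275), and only 66.4 CPM in neutrophil-like cells. On day 3 it was at 22.8 CPM in monocyte/macrophage-like cells, 14.1-fold lower, at 87.3 CPM in dendritic cell-like cells and at 82.1 CPM (62.7 to 106) in neutrophil-like cells. Its log2 ratio of -3.82 (-3.92 to -3.73) in monocyte/macrophage-like cells was the lowest of the 10 genes there. The share of these cells with a *Tnfsf9* UMI at 1000 UMIs was 20.3% on day 1 and 2.59% on day 3 (60.2% and 17.3% at full depth), and in satellite cell/myoblast-like cells of day 3 it was 1.0% (12% at full depth). On day 3 the 10% of monocyte/macrophage-like cells with most *Tnfsf9* UMIs held 80.0% of them, against 51.9% on day 1. That share depends on the level too, with 1010 UMIs on day 3 and 13249 on day 1, so nothing is read from its difference.

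In monocyte/macrophage-like cells the receptor genes differed by less than 2-fold between the days. *Tnfrsf1a*, the broadly expressed receptor with a death domain, was at 149 CPM in monocyte/macrophage-like cells of day 1 and 105 CPM on day 3 (log2 ratio -0.51), and at 176 and 148 CPM in fibroblast/FAP-like cells (-0.25). Outside the muscle lineage its levels ran from 86.5 CPM in endothelial-like cells of day 3 to 271 CPM in neutrophil-like cells of day 1. *Tnfrsf1b*, the second TNF receptor, which leukocytes express most, was at 741 CPM (718 to 765) in neutrophil-like cells of day 1, 137 CPM in monocyte/macrophage-like cells and 24.7 CPM in fibroblast/FAP-like cells. On day 3 its levels were 266, 77.0 and 22.7 CPM, and 404 CPM in the neutrophil-like cells under 3000 UMIs, where *Tnfrsf1a* was at 189 CPM. Satellite cell/myoblast-like cells had 23.9 CPM of *Tnfrsf1a* and 7.11 CPM of *Tnfrsf1b* on day 3. In fibroblast/FAP-like cells the free RNA estimate would give 53.7% of the *Tnfrsf1b* level on day 1 and 51.9% on day 3.

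Of the NF-kB subunits, *Nfkb1*, which encodes the precursor of a DNA-binding subunit, was at 306 CPM (301 to 312) in monocyte/macrophage-like cells of day 1 and 103 CPM (99.6 to 106) on day 3. In dendritic cell-like cells it was at 320 and 252 CPM, and in fibroblast/FAP-like cells at 246 and 190 CPM. With 103 CPM the monocyte/macrophage-like cells of day 3 were thus below fibroblast/FAP-like cells, whereas on day 1 they were above them when pooled. By cluster, the *Serpinb2*-led and *Plac8*-led cells of day 1 were above them (421 and 367 CPM). The *Ppbp*-led and *Ifitm6*-led cells of day 1 were below them (230 and 207 CPM). *Rel*, a subunit with a transactivation domain that lymphoid and myeloid cells use, was at 322 CPM (307 to 338) in dendritic cell-like cells of day 3, against 250 CPM (236 to 263) on day 1. Neutrophil-like cells had 279 CPM on day 1 and 246 CPM on day 3, with overlapping intervals, and those under 3000 UMIs on day 3 had 337 CPM (282 to 400). The last interval overlapped that of dendritic cell-like cells of day 3. *Nfkb1* was at 360 CPM in those shallow cells. Monocyte/macrophage-like cells had 173 and 104 CPM of *Rel*. In fibroblast/FAP-like cells *Rel* was at 24.9 and 36.5 CPM, of which the free RNA estimate would give 38.9% and 42.4%.

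By CPM, the inhibitors and feedback genes were again highest in neutrophil-like cells of day 1. *Nfkbia*, the classical inhibitor that holds NF-kB in the cytoplasm and is resynthesised after activation, was at 13568 CPM there and at 4919 CPM (4898 to 4940) in monocyte/macrophage-like cells. On day 3 the levels were 4716 CPM (7617 CPM under 3000 UMIs) and 893 CPM (885 to 902), the latter 5.51-fold lower. Nearly all of these cells held it at equal depth on day 1 (98.99% of neutrophil-like and 94.1% of monocyte/macrophage-like cells at 1000 UMIs), and 93.9% and 49.0% on day 3. At full depth these shares were 99.7% and 99.8% on day 1 and 97.7% and 93.9% on day 3. Satellite cell/myoblast-like cells of day 3 had a share of 21.0% at 1000 UMIs and 97.5% at full depth. The order by CPM is not one per cell. On day 1 the median depth was 2155 UMIs in neutrophil-like and 11181 in monocyte/macrophage-like cells. Medians per cell in these types were 29 and 56 UMIs of *Nfkbia*, 4 and 5 of *Nfkbiz*, 2 and 2 of *Tnfaip3* and 0 and 0 of *Bcl3*.

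*Nfkbiz*, a nuclear member of the inhibitor family that also coactivates secondary response genes, was at 2016 CPM in neutrophil-like and 547 CPM in monocyte/macrophage-like cells of day 1. On day 3 it was at 841 CPM (1327 CPM under 3000 UMIs) and 145 CPM. With all fibroblast/FAP-like cells counted, *Nfkbiz* was at 151 CPM (146 to 157) on day 1 and 165 CPM (160 to 170) on day 3. *Rel* was the other member with a higher value there on day 3. Without the cells with the highest doublet scores *Tnfaip3*, *Tnfrsf1b* and *Bcl3* also had higher values there on day 3. All genes had a median log2 ratio of 0.30 there with all cells and 0.32 without those cells. *Nfkbiz* with all cells, at 0.13, was below it. *Bcl3*, another nuclear inhibitor-like cofactor, was at 196 and 65.7 CPM in neutrophil-like cells (92.0 CPM under 3000 UMIs on day 3), 75.2 and 25.6 CPM in monocyte/macrophage-like cells and 47.4 and 42.3 CPM in fibroblast/FAP-like cells. *Tnfaip3* encodes an enzyme that edits ubiquitin chains and ends receptor signalling. Its level was 1272 and 485 CPM in neutrophil-like cells (754 CPM under 3000 UMIs on day 3), 281 and 91.2 CPM in monocyte/macrophage-like cells, and 56.8 and 53.2 CPM in fibroblast/FAP-like cells. The free RNA estimate would give 49.2% and 35.2% of the fibroblast/FAP-like level of *Tnfaip3*.

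The comparison of the days asked which of the 10 genes differed at least 2-fold within a cell type. In monocyte/macrophage-like cells 7 of 10 were at least 2-fold lower on day 3 (*Tnf*, *Tnfsf9*, *Tnfaip3*, *Nfkbia*, *Nfkbiz*, *Nfkb1* and *Bcl3*) and 0 were at least 2-fold higher. Of all 11653 genes with at least 50 UMIs over both days, 5.29% were at least 2-fold lower and 28.4% at least 2-fold higher. The median log2 ratio was -1.60 over the members and 0.47 over all genes. Markers of neutrophils in these cells summed to 1874 CPM on day 1 and 456 CPM on day 3, and without the cells with the highest doublet scores *Tnf* was at 381 and 85.6 CPM (-2.16). Relative to the median of 0.47 the other members had log2 ratios of -0.98 (*Tnfrsf1a*), -1.29 (*Tnfrsf1b*) and -1.19 (*Rel*).

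**Figure D4:**
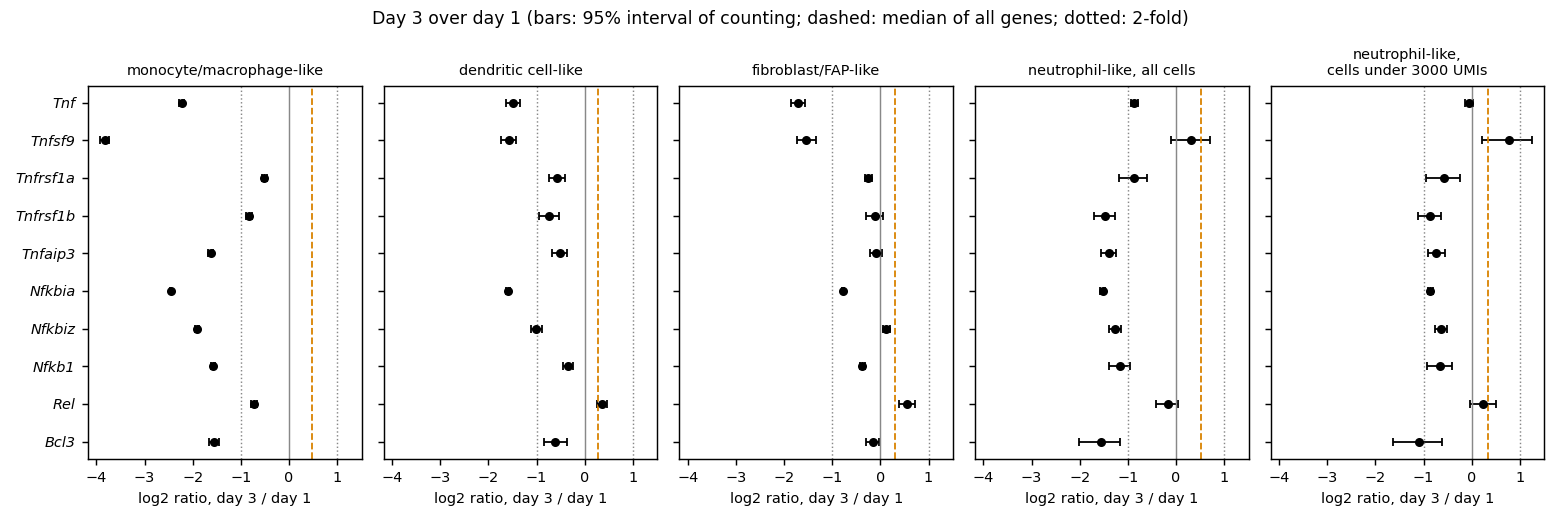
Log2 ratio of day 3 over day 1 (horizontal axis) for each gene, 1 panel per group of cells, with 95% intervals of counting, the median of all genes as a dashed line and 2-fold differences as dotted lines. In monocyte/macrophage-like cells 7 of 10 genes lie beyond the 2-fold line on the left, and in neutrophil-like cells under 3000 UMIs *Bcl3* alone does.

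Dendritic cell-like cells had 4 members at least 2-fold lower on day 3, against 3.79% of 8560 genes, and 0 at least 2-fold higher (15.9% of those genes). The 4 were *Tnf* (log2 ratio -1.48), *Tnfsf9* (-1.58), *Nfkbia* (-1.59) and *Nfkbiz* (-1.01), and *Rel* was at 0.37 (0.26 to 0.47). Without the cells with the highest doublet scores *Nfkbiz* was at -0.85, and 3 members were at least 2-fold lower. Neutrophil markers summed to 1591 CPM in dendritic cell-like cells of day 1 and 162 CPM on day 3, and without the cells with the highest doublet scores *Tnf* was at 213 and 94.0 CPM (-1.18). The median over the members was -0.68, and over all genes 0.28. *Rel* had a higher CPM on day 3 than on day 1 in these cells, and a lower one in monocyte/macrophage-like cells (-0.73). Relative to the median of all genes its log2 ratio was 0.08 in dendritic cell-like cells, close to that of a typical gene. In monocyte/macrophage-like cells it was -1.19.

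Fibroblast/FAP-like cells, from the *Il1rl1*-led cluster on day 1 and the *Sfrp2*-led cluster on day 3, had 2 members at least 2-fold lower, *Tnf* (-1.71) and *Tnfsf9* (-1.54), against 7.13% of 12281 genes, and 0 at least 2-fold higher (23.4% of genes). The 10% of fibroblast/FAP-like cells with most UMIs of the gene held 89.8% of *Tnf* and 81.7% of *Tnfsf9* UMIs on day 1. Neutrophil markers summed to 777 CPM in these cells on day 1 and 131 CPM on day 3. The same free RNA estimate would give 71.0% of the *Tnf* level on day 1 and 118% on day 3. The value of day 3 exceeds the level itself, so the estimate is too high there. Without the cells with the highest doublet scores, *Tnf* was at 23.4 and 14.2 CPM and *Tnfsf9* at 20.6 and 12.6 CPM, neither of them 2-fold apart, and *Rel* at 14.9 and 32.4 CPM, a log2 ratio of 1.12 (0.91 to 1.35). The other members stayed within 2-fold in both settings, from *Nfkbia* at -0.78 to *Nfkbiz* at 0.13 with all cells. Without the cells with the highest doublet scores they ran from *Nfkbia* at -0.49 to *Nfkbiz* at 0.50, and some signs differed. *Tnfaip3* was then at 0.36 (0.21 to 0.50) against -0.09 with all cells, and *Tnfrsf1b* at 0.34 (0.10 to 0.58) against -0.12. *Bcl3* was then at 0.03 (-0.11 to 0.18) against -0.16. The median over all genes was 0.30 with all cells and 0.32 without those cells, and over the members -0.21 with all cells. *Tnfaip3* and *Tnfrsf1b* without those cells were thus near the median of all genes, and *Nfkbiz* with all cells was below it.

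Over all neutrophil-like cells 6 members were at least 2-fold lower on day 3 (*Bcl3*, *Nfkbia*, *Tnfrsf1b*, *Tnfaip3*, *Nfkbiz* and *Nfkb1*), against 8.31% of 5778 genes, and 0 were at least 2-fold higher (33.9% of genes). In those under 3000 UMIs 1 member was, *Bcl3* (-1.08, -1.63 to -0.62), against 5.12% of 4610 genes, and 0 were at least 2-fold higher (19.6%). There *Nfkbia* was at -0.86 (-0.92 to -0.81), *Tnfaip3* at -0.73 (-0.91 to -0.56) and *Nfkbiz* at -0.63 (-0.76 to -0.50), intervals that leave out 0, while those of *Tnf* and *Rel* (0.24, -0.04 to 0.50) include it. *Tnfsf9* had the highest ratio, 0.77 (0.22 to 1.25), from 59.1 CPM on day 1 and 99.7 CPM on day 3. Few cells held this gene. At 1000 UMIs 3.51% of all neutrophil-like cells of day 1 and 6.90% of day 3 had a *Tnfsf9* UMI. At full depth 1 cell of day 1 held 18 of the 343 UMIs. The median over the members was -0.64 and over all 4610 genes 0.34.

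Over all cells of a library, 8 members were at least 2-fold lower on day 3, against 5.63% of 14133 genes, and 0 at least 2-fold higher (27.8%). In the mixed endothelial-like cluster 4 of 8 members tested were at least 2-fold lower (*Tnf*, *Tnfrsf1a*, *Tnfrsf1b* and *Nfkbia*), against 10.6% of 4212 genes, and 0 higher (7.53%). Over all cells *Tnf* went from 566 to 77.9 CPM, a log2 ratio of -2.86. That ratio is below those of the monocyte/macrophage-like cells (-2.23) and the neutrophil-like cells (-0.86), and the share of neutrophil-like cells differed between the days as given above.

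Within the monocyte/macrophage-like cells the members differed between clusters of the same library. On day 1 the *Serpinb2*-led cluster of 1439 cells, with *Il1a* and *Csf3* as its next leading genes, had 596 CPM of *Tnf*, the *Ppbp*-led cluster of 1220 cells 359 CPM and the *Ifitm6*-led cluster of 733 cells 107 CPM. The *Plac8*-led cluster that *Ighm* and *Ly6c2* also lead, with 66 cells on day 1, had 686 CPM (624 to 754). *Nfkbia* was at 6234, 4487, 3055 and 4364 CPM in the same order, and *Tnfsf9* at 461, 304, 83.7 and 98.5 CPM. The *Ifitm6*-led and *Plac8*-led clusters thus shared a low *Tnfsf9* level and differed in *Tnf*. In the *Serpinb2*-led over the *Ppbp*-led cluster 0 members were at least 2-fold higher (1.95% of 9456 genes) or lower (5.88%), and the intervals of *Tnfrsf1a*, 132 and 137 CPM, overlapped.

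**Figure D5:**
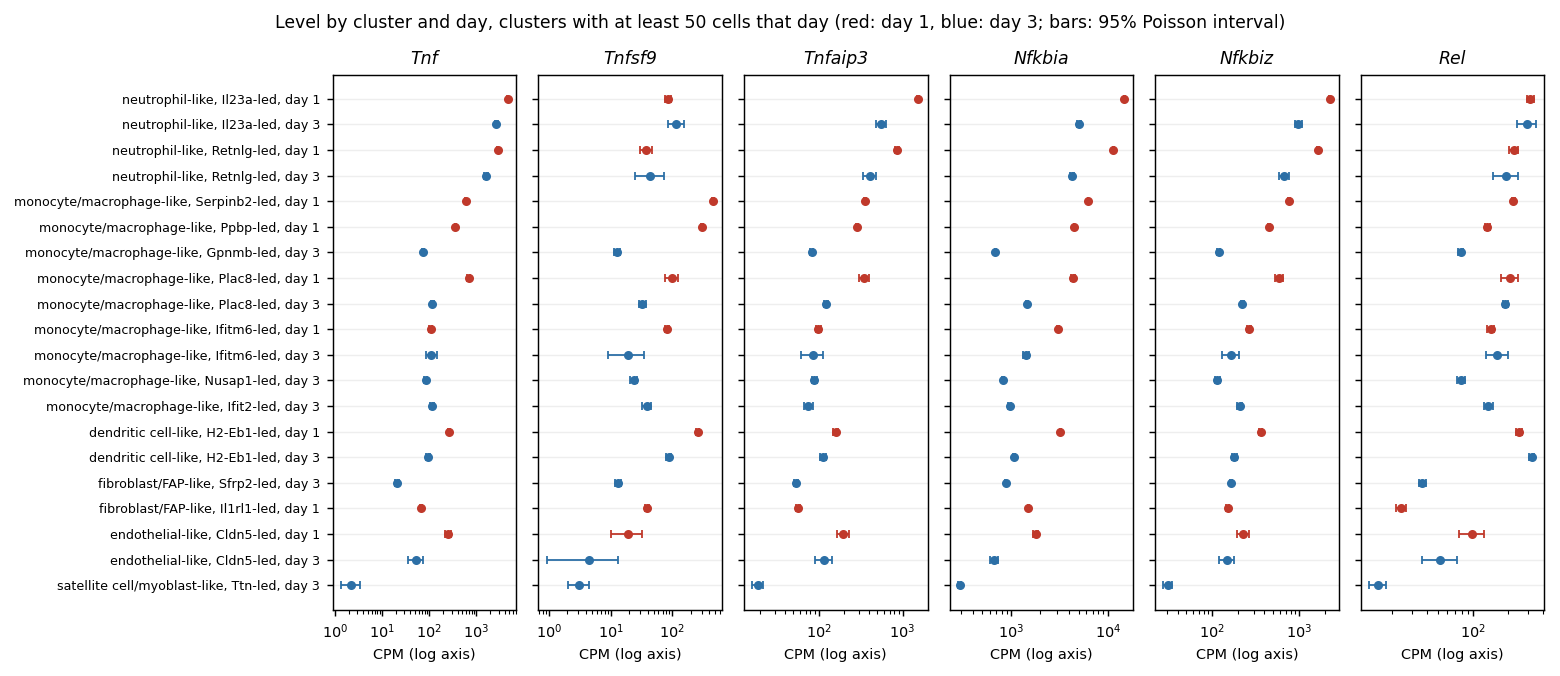
Level of 6 of the genes in CPM (horizontal log axis) in each cluster with at least 50 cells on that day, red for day 1 and blue for day 3, with 95% Poisson intervals. The *Plac8*-led cluster had 686 CPM of *Tnf* on day 1 and 116 CPM on day 3, and the *Ifitm6*-led cluster 107 and 112 CPM.

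Both of these last clusters had at least 50 cells on each day. From day 1 to day 3 *Tnf* went from 686 to 116 CPM in the *Plac8*-led cluster and from 107 CPM to 112 CPM (85.1 to 144) in the *Ifitm6*-led cluster. *Nfkbia* was lower on day 3 in both, at 1463 and 1427 CPM, and *Rel* had overlapping intervals between the days in both (208 and 190 CPM, 142 and 161 CPM). On day 3 the *Plac8*-led cluster of 764 cells was above the *Gpnmb*-led cluster of 1215 cells at least 2-fold in 5 of 10 members (*Tnfsf9*, *Nfkbia*, *Nfkb1*, *Rel* and *Bcl3*), against 5.94% of 10342 genes, and 0 were at least 2-fold lower (6.18%). *Rel* was at 190 and 78.6 CPM there, and *Tnf* at 116 and 73.0 CPM. In the *Ifit2*-led cluster, whose leading genes are interferon-induced, 2 members were at least 2-fold above the *Gpnmb*-led cluster, *Tnfsf9* (1.61) and *Bcl3* (1.22), against 7.66% of 10179 genes, and 0 were at least 2-fold lower (5.04%). The *Nusap1*-led cluster of day 3, which the proliferation marker *Mki67* also leads, had 84.1 CPM of *Tnf* and 817 CPM of *Nfkbia*.

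The neutrophil-like clusters also differed. On day 1 the *Il23a*-led cluster (1049 cells, led by *Il23a*, *Acod1* and *G0s2*) had 4650 CPM of *Tnf* and the *Retnlg*-led cluster (1030 cells, led by *Retnlg*, *Cxcr2* and *S100a9*) 2872 CPM. *Tnfaip3* was at 1540 and 857 CPM and *Nfkb1* at 698 and 415 CPM. Of the 10 members 1 was at least 2-fold higher in the *Il23a*-led cluster, *Tnfsf9* (85.1 and 37.5 CPM), against 1.83% of 5031 genes, and 0 were at least 2-fold lower (0.835% of genes). *Tnfrsf1a* was at 218 and 354 CPM (-0.70). On day 3 *Tnf* was at 2674 and 1599 CPM, and 1 of 9 members tested was at least 2-fold higher, *Tnfsf9* (1.36, 0.52 to 2.34), with 0 lower (1.35%), against 1.4% of 2143 genes. These levels of day 3 include the deep cells, 16 in the *Il23a*-led and 11 in the *Retnlg*-led cluster. In the 129 and 105 cells under 3000 UMIs *Tnf* was at 4304 CPM (4033 to 4590) and 3032 CPM (2779 to 3301), and *Tnfsf9* at 138 CPM (93.4 to 198) and 51.6 CPM (23.6 to 97.9), from 30 and 9 UMIs, with overlapping intervals.

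Shares of cells with a UMI of the other members were also set beside *Tnf* in single cells of equal depth. Monocyte/macrophage-like cells of day 1, thinned to 3000 UMIs, were divided into 1619 with and 1752 without a *Tnf* UMI, with 128 shallower cells left out. *Tnfsf9* was found in 48.1% of the former and 30.3% of the latter, *Tnfaip3* in 57.9% and 38.3%, and *Nfkbiz* in 78.1% and 57.8%. *Tnfrsf1a* went the other way, 33.8% and 37.6%, with overlapping intervals (31.5 to 36.1 and 35.3 to 39.9). On day 3, with 549 and 2194 cells and 40 left out, *Tnfaip3* was found in 28.6% and 18.0%, *Nfkbiz* in 45.5% and 30.1% and *Nfkbia* in 84.5% and 71.6%. *Nfkb1* (29.5% and 28.0%) and *Rel* (28.8% and 27.9%) had overlapping intervals on day 3. Clusters of unequal *Tnf* level are pooled in these shares, and their part in them was not tested. The same shares were not computed for other genes, so nothing is read from them about the members.

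Across the 11 groups of cell type and day with at least 50 cells, Pearson correlations of log2(CPM + 1) for the 45 pairs of members ran from 0.56 (*Rel* and *Tnfrsf1a*) to 0.98 (*Tnfaip3* and *Tnfrsf1b*). The groups of a day share a library, and the neutrophil-like cells, highest in most members, are part of every correlation. Among 10266 genes with at least 500 UMIs, those most like *Tnf* were *Ccrl2*, *Slc7a11* (both 0.99) and *Ets2* (0.98). *Tnfaip3* was most like *Mxd1*, *Gripap1* and *Ets2*, *Tnfrsf1b* most like *Slfn1*, *Mxd1* and *Ccrl2* (all 0.99), and *Nfkbia* most like *Gadd45b*, *Mir22hg* (both 0.98) and *Stx11* (0.97). *Nfkbiz* was nearest to *Orai2*, *Ndel1* (both 0.99) and *Csrnp1* (0.97), *Tnfrsf1a* to *Irak3*, *Stat3* and *Nr4a1* (0.97 to 0.95), and *Rel* to *Sirpb1a*, *Batf* (both 0.98) and *E230029C05Rik* (0.97). The least close were *Tnfsf9*, with *Ccdc71l*, *Nfil3* and *Gm9733* (0.95 to 0.92), *Nfkb1*, with *Tnip1*, *Kdm6b* (both 0.94) and *S100a11* (0.93), and *Bcl3*, with *S100a11*, *Tnip1* and *Cdc42se1* (0.95 to 0.92).

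Other genes of the pathway were taken from lists, and their ratios of day 3 over day 1 are given for monocyte/macrophage-like cells, where 5.29% of all genes tested were at least 2-fold lower and 28.4% at least 2-fold higher. Of 7 other NF-kB subunit and inhibitor genes all were tested, 5 were at least 2-fold lower on day 3 and 0 higher, with a median log2 ratio of -1.14. *Nfkbie* went from 199 to 51.4 CPM, *Nfkbid* from 125 to 47.5 CPM and *Nfkb2* from 93.1 to 40.1 CPM, whereas *Rela*, the main transactivating subunit, was at 52.6 and 39.1 CPM (-0.43) and *Nfkbil1* at 10.8 and 15.9 CPM. Of 30 other NF-kB target genes 23 were at least 2-fold lower and 0 higher (median -1.98). *Il1b*, a proinflammatory cytokine, was at 8120 CPM on day 1 and 300.9 CPM on day 3, *Il1a* at 396 and 5.21 CPM and *Il6* at 34.8 and 1.51 CPM. At the other end, *Cxcl10* was at 124 and 158 CPM and *Sqstm1* at 177 and 205 CPM.

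The lists closer to the receptors had genes called in both directions, and their median log2 ratios were below that of all genes (0.47). Of 20 other feedback genes 5 were at least 2-fold lower and 3 higher (median -0.14). Lowest were *Socs3*, a brake on cytokine receptor signalling (403 and 75.0 CPM), *Tnip1*, a partner of the *Tnfaip3* product (67.1 and 25.5 CPM), and the anti-inflammatory cytokine *Il10* (148 and 59.7 CPM), and highest *Usp18* (4.75 and 22.4 CPM), *Tnfaip8l2* (40.3 and 97.7 CPM) and *Traf3ip3* (1.85 and 4.31 CPM). Of 23 genes of receptor-proximal signalling 3 were at least 2-fold lower, *Traf1*, *Cflar* and *Birc3*, and 2 higher, *Tab1* and *Fadd* (median 0.31). *Cflar*, which blocks caspase activation at death receptors, was at 316 and 119 CPM. Of 11 TNF family receptors tested 1 was at least 2-fold lower, *Fas* (34.3 and 10.6 CPM), and 1 higher, *Cd40* (5.94 and 18.0 CPM).

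Few of the other TNF family ligands could be tested. Of 8 tested among 16, 2 were at least 2-fold lower on day 3, *Ltb* (7.43 and 1.26 CPM) and *Tnfsf14* (23.8 and 8.24 CPM), and 6 were higher (median 1.91). Of these *Tnfsf12* was at 59.3 and 122 CPM, and *Tnfsf10* rested on 4 UMIs on day 1 (0.0974 and 2.60 CPM). In dendritic cell-like cells 19 of 29 other NF-kB targets tested were at least 2-fold lower and 1 was higher (3.79% and 15.9% of all genes tested), and in fibroblast/FAP-like cells 12 of 30 were lower and 3 higher (7.13% and 23.4%). Neutrophil markers were also lower on day 3 in both types, and the fibroblast/FAP-like cells came from a different cluster on each day. The part of doublets, free RNA and clusters in these counts was not tested.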

How the data were processed

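The deposited tables held raw UMI counts per gene and cell barcode, not normalised, which the authors made with Cell Ranger from 10x Genomics 3-prime libraries of mononuclear cells of injured quadriceps, 1 library on day 1 and 1 on day 3 (version 5.0.0 and build mm10 per the labels, Cell Ranger 4 per the file headers). The 7367 and 6640 barcodes with most UMIs were taken, and cells with at least 1000 UMIs, at least 200 genes and at most 7.5% mitochondrial UMIs were kept, 6735 and 4627 cells. The mitochondrial limit was exceeded by 7.02% of the barcodes taken on day 1 and by 30.3% on day 3.

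Cells were clustered with Seurat 5.3.0 and sctransform 0.4.2 in R 4.3.3 (3000 variable features, 10 principal components, resolution 0.8), leaving out the members and the naming markers, and clusters were named from marker lists. Doublets were kept, since Scrublet in scanpy 1.11.5 marked 2 and 0 cells by its automatic threshold, too few to have worked. An alternative left out the 363 and 171 cells with the highest scores, numbers set by an assumed rate of 0.8% per 1000 cells. These cells were not shown to be doublets. Levels and ratios were computed in Python 3.11.15 (numpy 2.4.6, scipy 1.17.1, pandas 2.3.3) from UMIs summed over the cells of a type. Ratios had 0.5 added to each count and exact binomial intervals, and a gene was compared with at least 50 UMIs over both days and called at 2-fold. Shares have exact Clopper-Pearson intervals. The genes named are all members, the 3 lowest and 3 highest tested genes of each pathway list and the 3 leading genes of each cluster. The 3 genes most alike to each member and the genes that set the free RNA share are named too. The calculation was tested on simulated data. Members and lists were chosen with earlier results of these data known. The limit of 3000 UMIs on neutrophil-like cells and the thinning to 1000 UMIs were chosen after seeing the data.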

Additional observations from a re-analysis of the deposited data

How the results depend on the processing

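Under the alternatives run, the count of members at least 2-fold lower on day 3 was 7 to 9 in monocyte/macrophage-like cells. It was 3 to 5 in dendritic cell-like cells and 8 to 10 over all cells. The alternatives included leaving out the cells with the highest doublet scores, a mitochondrial limit of 15%, naming by highest marker score and another resolution. They also included another minimum of UMIs, free RNA subtracted, thinning, the mean over cells, and the median of all genes set to 0. In neutrophil-like cells the count of 6 was 8 with the median of all genes set to 0, 3 with the mitochondrial limit of 15%, 0 with naming by highest marker score, 1 with the mean of CPM over cells and 1 in cells under 3000 UMIs, the last chosen after seeing the data. In fibroblast/FAP-like cells without the cells with the highest doublet scores 0 members were lower and 1 was higher. The difference of 28.0 percentage points in the share of monocyte/macrophage-like cells with a *Tnf* UMI was 24.2 with naming by highest marker score and 20.4 without thinning. Of the ratios of single genes in monocyte/macrophage-like cells under the alternatives, 70 moved by less than their interval and 40 by more, and none changed sign. Some alternatives gave no neutrophil-like value because under 50 cells were left on day 3. No paired analysis was possible because each day had 1 library. Leaving out a replicate was not possible for the same reason. Depth limits *Tnfsf9* and *Bcl3* in endothelial-like cells, which were under 50 UMIs and not compared.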

Other observations

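Cells over the mitochondrial limit, with 7.5% to 15% mitochondrial UMIs, entered only the alternative with a mitochondrial limit of 15%. When they were clustered with the rest, 126 monocyte/macrophage-like cells of day 3 had 103 CPM of *Tnf* (86.3 to 121) and 1003 CPM of *Nfkbia* (951 to 1058), against 89.2 and 894 CPM in the cells within the limit. On day 1 there were 18 such cells, with 233 CPM of *Tnf* (148 to 350).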
